A study of Homo sapiens with 8 samples.

Results

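The MAP kinase phosphatases of the dual-specificity phosphatase (DUSP) family were followed across 4 groups of activator-expressing HEK293T cells. The 9 genes, of 60652 gene rows in the count tables, were taken by symbol: DUSP1, DUSP2, DUSP4, DUSP5, DUSP6, DUSP7, DUSP8, DUSP10 and DUSP16. They were read as 3 classes, the nuclear inducible members (DUSP1, DUSP2, DUSP4 and DUSP5), the cytoplasmic ERK-specific members (DUSP6 and DUSP7) and the members specific to JNK and p38 (DUSP8, DUSP10 and DUSP16). The rule used no measured value, but the members were chosen with earlier results of these data known. All 9 passed the filter on low counts.

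MAP kinases (ERK, JNK and p38) are switched on by phosphorylation of a threonine and a tyrosine in their activation loop, and the phosphatases of this family switch them off by removing both phosphates. Several of the phosphatase genes are themselves transcribed when the kinases are active, which closes a negative feedback loop, and DUSP1 and DUSP5 are known as early response genes to serum, growth factors or stress. The members differ in where they act and on which kinase, with nuclear members acting on kinases that have entered the nucleus and the cytoplasmic ERK-specific ones holding ERK in the cytoplasm.

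The series measured messenger RNA in a HEK293T line, derived from human embryonic kidney, that carries a TRE3G-GFP reporter, in which tet operator sites stand before the gene of a fluorescent protein. All cells were grown in medium with 10% serum, received plasmids for an activator and a guide, and were collected 2 days later by sorting for mCherry and BFP. The groups were dCasMINI-VPR with a Tet guide (sgTet), dCasMINI-VPR with a non-targeting guide (sgNT), dCas12a-VPR with a Tet guide (crTet) and dCas12a-VPR with a non-targeting guide (crNT), with 2 libraries each. Both activators are Cas proteins without cutting activity joined to the VPR activation domains, so every group, the non-targeting ones included, holds a transfected activator and sorted cells, and untransfected cells were not analysed here. The labels do not say whether the 2 libraries of a group came from separate transfections, so p-values measure only the spread between these libraries.

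Each library held between 17474404 and 21081942 reads in genes, so that 3 reads, taken as the floor of detection, stand for 0.142 to 0.172 CPM (counts scaled to library size), counting error alone. The reporter checked the labels: EGFP averaged 1007 ± 123 CPM in sgTet and 3.83 ± 0.846 CPM in sgNT, and 756 ± 68.2 CPM in crTet and 2.71 ± 0.0761 CPM in crNT (SD, n = 2 each). Markers fixed for the cell line (LHX1, PAX2, VIM, NEFL, NEFM, KRT8, KRT18 and CDH2) were all 8 expressed, at a summed 459 to 592 CPM per library. Of these VIM was higher in sgTet than in sgNT (0.46, adjusted p = 0.00281) and in crTet than in crNT (0.35, adjusted p = 0.0112). These VIM calls held under 11 and 12 of 17 alternatives of processing, and were lost with either strand column or their sum. VIM was also higher in sgTet than in crTet (0.31, adjusted p = 0.0353), under 5 of 17. NEFM was higher in crTet than in crNT (0.66, adjusted p = 0.00527) and in sgNT than in crNT (0.62, adjusted p = 0.00745), under 14 and 13 of 17. KRT8 was lower in sgNT than in crNT (-0.72, adjusted p = 8.41e-07) and in sgTet than in crTet (-0.70, adjusted p = 1.91e-06), in all cases on the log2 scale by edgeR, and the part of these differences in the values of the phosphatase genes was not tested. Of the markers of other cells, the blood genes PTPRC and HBB had 0 reads in every library, the 3 endothelial genes summed to at most 0.624 CPM, and the 5 fibroblast genes summed to 33.8 to 46.4 CPM, of which COL1A1 alone gave 32.4 to 44.4 CPM. The crNT libraries had more unmapped reads than the others, 14.4% and 12.7%, against 8.32% to 9.62% in the other 6. The names under which the libraries were deposited carry a different prefix for each activator. The labels do not say what the prefix stands for, so whatever it marks cannot be told apart from the activator.

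Promoter windows of 250 bases before the gene start were taken from RefSeq on GRCh38.p14 for the 7 members matched by symbol, DUSP4 and DUSP5 being the ones named only. Of these the windows of DUSP1, DUSP8, DUSP7 and DUSP16 are shown, because DUSP1 moved most of the 9 genes, DUSP8 carries the same element as DUSP1, and DUSP7 and DUSP16 moved in opposite directions. All 4 are read from the minus strand, 5′ to 3′ toward the gene, and cover chr5:172771196-172771445, chr11:1572272-1572521, chr3:52056572-52056821 and chr12:12562864-12563113. Capitals mark the full cyclic AMP response element TGACGTCA, its shorter form TGACG, which also lies inside the full one, and the E-box CACGTG, each searched on both strands.
DUSP1: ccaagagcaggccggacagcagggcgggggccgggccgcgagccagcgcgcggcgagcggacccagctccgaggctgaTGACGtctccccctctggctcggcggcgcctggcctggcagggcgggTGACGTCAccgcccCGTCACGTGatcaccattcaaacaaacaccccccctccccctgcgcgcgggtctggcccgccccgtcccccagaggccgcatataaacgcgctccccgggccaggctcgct
DUSP8: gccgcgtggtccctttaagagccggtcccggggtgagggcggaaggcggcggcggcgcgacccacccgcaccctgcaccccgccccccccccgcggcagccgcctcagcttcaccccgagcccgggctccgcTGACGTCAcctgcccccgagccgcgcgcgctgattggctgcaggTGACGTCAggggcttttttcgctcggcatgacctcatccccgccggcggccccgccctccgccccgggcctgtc
DUSP7: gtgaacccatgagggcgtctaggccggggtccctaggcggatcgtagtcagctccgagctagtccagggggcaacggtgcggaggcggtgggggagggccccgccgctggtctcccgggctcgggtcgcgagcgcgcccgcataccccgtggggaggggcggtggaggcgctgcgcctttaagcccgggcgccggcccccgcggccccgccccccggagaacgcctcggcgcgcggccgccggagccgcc
DUSP16: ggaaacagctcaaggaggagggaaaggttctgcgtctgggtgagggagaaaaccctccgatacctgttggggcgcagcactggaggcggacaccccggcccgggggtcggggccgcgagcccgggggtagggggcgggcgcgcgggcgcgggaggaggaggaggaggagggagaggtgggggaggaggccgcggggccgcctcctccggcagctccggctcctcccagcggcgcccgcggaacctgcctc

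DUSP1 held 1 copy of TGACGTCA, starting 125 bases before the gene start, and 4 matches to TGACG, of which 2 lie inside the full element and 1 overlaps its copy of CACGTG. DUSP8 held 2 copies of TGACGTCA, at 118 and 74 bases, and 4 matches to TGACG, all inside them. DUSP2 held 1 CACGTG at 113 bases. The windows of DUSP6, DUSP7, DUSP10 (2 gene starts) and DUSP16 held none of the motifs searched, and no member's window held the AP-1 site TGANTCA or the CArG box of serum response factor. Over 35116 promoter windows of the same length, 1.65% held TGACGTCA, 21.2% TGACG, 6.34% CACGTG, 6.57% TGANTCA and 1.16% the CArG box. These are matches of letters and say nothing of binding.

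On hg38 with the GENCODE 29 annotation, 8 of the 9 genes lie on the minus strand and DUSP5 on the plus strand. The nuclear inducible genes are DUSP1 (ENSG00000120129.6, chr5:172768090-172771195), DUSP2 (ENSG00000158050.5, chr2:96143166-96145440), DUSP4 (ENSG00000120875.9, chr8:29333064-29350668) and DUSP5 (ENSG00000138166.6, chr10:110497838-110511544). The cytoplasmic genes are DUSP6 (ENSG00000139318.8, chr12:89347232-89353271) and DUSP7 (ENSG00000164086.10, chr3:52048919-52056550). The JNK and p38-specific genes are DUSP8 (ENSG00000184545.11, chr11:1554044-1571920), DUSP10 (ENSG00000143507.18, chr1:221701424-221742176) and DUSP16 (ENSG00000111266.9, chr12:12474210-12562383). DUSP6 shares exon sequence with AC024909.2 on the other strand, and its 161 unstranded reads over the 8 libraries became 209 when the strand-specific counts were summed, so reads of the pair are uncertain. The RefSeq starts of DUSP7, DUSP8 and DUSP16 lie upstream of the GENCODE gene starts given here. Those of DUSP6 and DUSP10 lie inside the GENCODE genes, so their promoter windows fall wholly or partly within the genes. The other members had strand-specific counts that summed to the unstranded count or, for DUSP16, to 7137 against 7134.

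Scaled by exon length, DUSP1 was the most abundant member in every library. It averaged 129 CPM per kilobase over the 8 libraries, with a lowest library of 66.4, while no library of any other member exceeded 10.5 CPM per kilobase. DUSP16 followed at 7.91 and DUSP5 at 7.86 CPM per kilobase, with overlapping ranges over the libraries. DUSP7 came next at 4.52 CPM per kilobase, with every library below those of DUSP5 and above those of DUSP10. DUSP10 at 2.00, DUSP8 at 1.55, DUSP2 at 0.967 and DUSP4 at 0.748 CPM per kilobase formed a run in which each overlapped its neighbour. DUSP6 was lowest at 0.221 CPM per kilobase, with every library below those of DUSP4, and its reads numbered between 12 and 33 per library. The order therefore ran across the classes, with a nuclear, a JNK and p38-specific and a nuclear member at the top and a cytoplasmic one at the bottom.

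**Figure D1:**
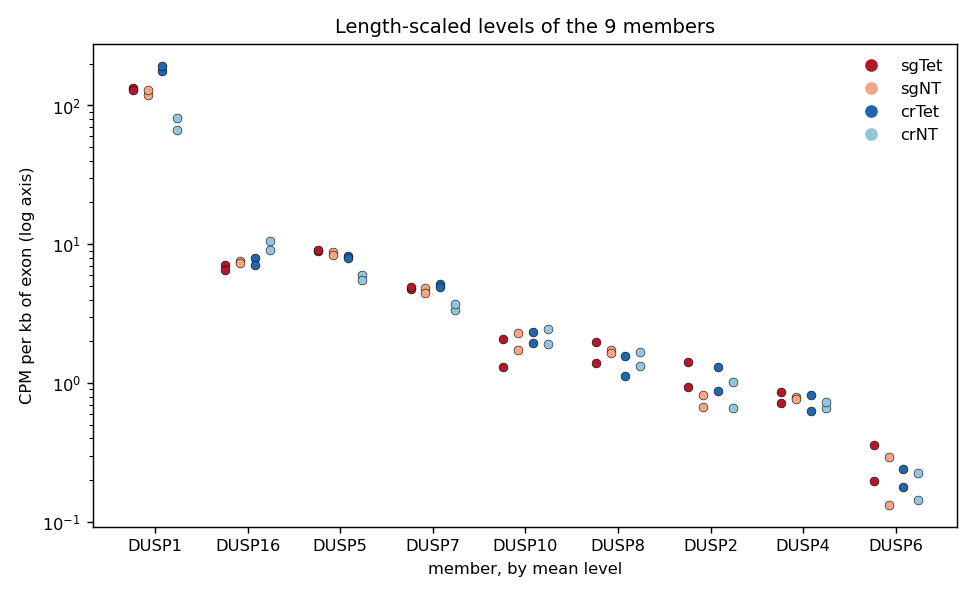
Length-scaled level of each member in each library, in CPM per kilobase of exon on a log axis, with members ordered by their mean over 8 libraries and each point 1 library coloured by group. DUSP1 lies above 66 CPM per kilobase in every library, and DUSP6 lies below every library of DUSP4.

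With the Tet guide and dCas12a-VPR, 3 of the 9 phosphatase genes rose and 1 fell relative to the non-targeting guide, while with dCasMINI-VPR none passed the test. DUSP1, DUSP5 and DUSP7 rose in crTet and DUSP16 fell. The test was edgeR's quasi-likelihood test with Benjamini-Hochberg adjustment over all 16606 genes tested, at an adjusted p below 0.05. By that rule 6.32% of all genes were called with dCas12a-VPR, 3.56% higher and 2.75% lower (592 and 457 genes, or 432 and 600 with library size alone in place of TMM scaling), and 0.795% with dCasMINI-VPR. With dCasMINI-VPR no member had an unadjusted p below 0.05 either (12.3% of all genes had), and DESeq2 also called 0. A count of 4 of 9 members stands above the 6.32% of genes called. The members were chosen with earlier results of these data known, so the count is no test. The 4 of 9 whose crTet and crNT libraries did not overlap do not stand above the 52.6% of all genes with this property. With dCasMINI-VPR 3 of 9 members did not overlap, against 40.9% of all genes. In bulk RNA, a change in the share of cells that carry a transcript and a change in its amount per cell cannot be told apart.

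Among the nuclear inducible members, DUSP1 encodes a phosphatase of p38, JNK and ERK and had the largest change of the family. It stood at 359 and 389 CPM in crTet, against 134 and 163 CPM in crNT. With dCasMINI-VPR it stood at 271 and 261 CPM in sgTet, against 240.0 and 261 CPM in sgNT. Both crTet libraries were the highest of the 8 and both crNT libraries the lowest, with the dCasMINI-VPR libraries between them and overlapping each other. DUSP1 rose 2.52-fold with dCas12a-VPR (log2 fold change 1.33 ± 0.08 SE, adjusted p = 6.19e-13), rank 2 of all genes tested by p and rank 284 by the size of the rise. With dCasMINI-VPR the log2 fold change was 0.08 ± 0.08 (95% interval -0.08 to 0.25, adjusted p = 0.712).

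DUSP5, a nuclear phosphatase of ERK alone, followed the same order of the dCas12a-VPR groups at a lower level. It had 21.5 and 20.8 CPM in crTet, against 15.6 and 14.4 CPM in crNT, and 23.4 and 23.96 CPM in sgTet, against 23.1 and 21.7 CPM in sgNT. The 2 crNT libraries were below the other 6, which lay between 20.8 and 23.96 CPM. DUSP5 rose 1.41-fold with dCas12a-VPR (0.49 ± 0.13, adjusted p = 0.0229), and the value with dCasMINI-VPR was 0.08 ± 0.13 (interval -0.18 to 0.34, adjusted p = 0.847). The call with dCas12a-VPR was lost without crNT replicate 1 or 2 (adjusted p = 0.157 and 0.234) or crTet replicate 1 or 2 (0.114 and 0.0798), with log2 fold changes of 0.44 to 0.55.

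DUSP2, known from activated lymphocytes, and DUSP4, another nuclear member, were low and passed no test. DUSP2 had 2.54 and 1.70 CPM in crTet, against 1.28 and 1.97 CPM in crNT, and 1.80 and 2.76 CPM in sgTet, against 1.59 and 1.30 CPM in sgNT. The crTet and crNT libraries overlapped, while both sgTet libraries lay above both sgNT libraries, by 0.65 ± 0.41 on the log2 scale (interval -0.19 to 1.495, adjusted p = 0.540). DUSP4 had 4.54 and 5.94 CPM in crTet, against 4.82 and 5.32 CPM in crNT, and 5.20 and 6.29 CPM in sgTet, against 5.79 and 5.56 CPM in sgNT. Its groups overlapped with either activator, and its 95% intervals ran from -0.44 to 0.53 with dCas12a-VPR and from -0.46 to 0.49 with dCasMINI-VPR.

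**Figure D2:**
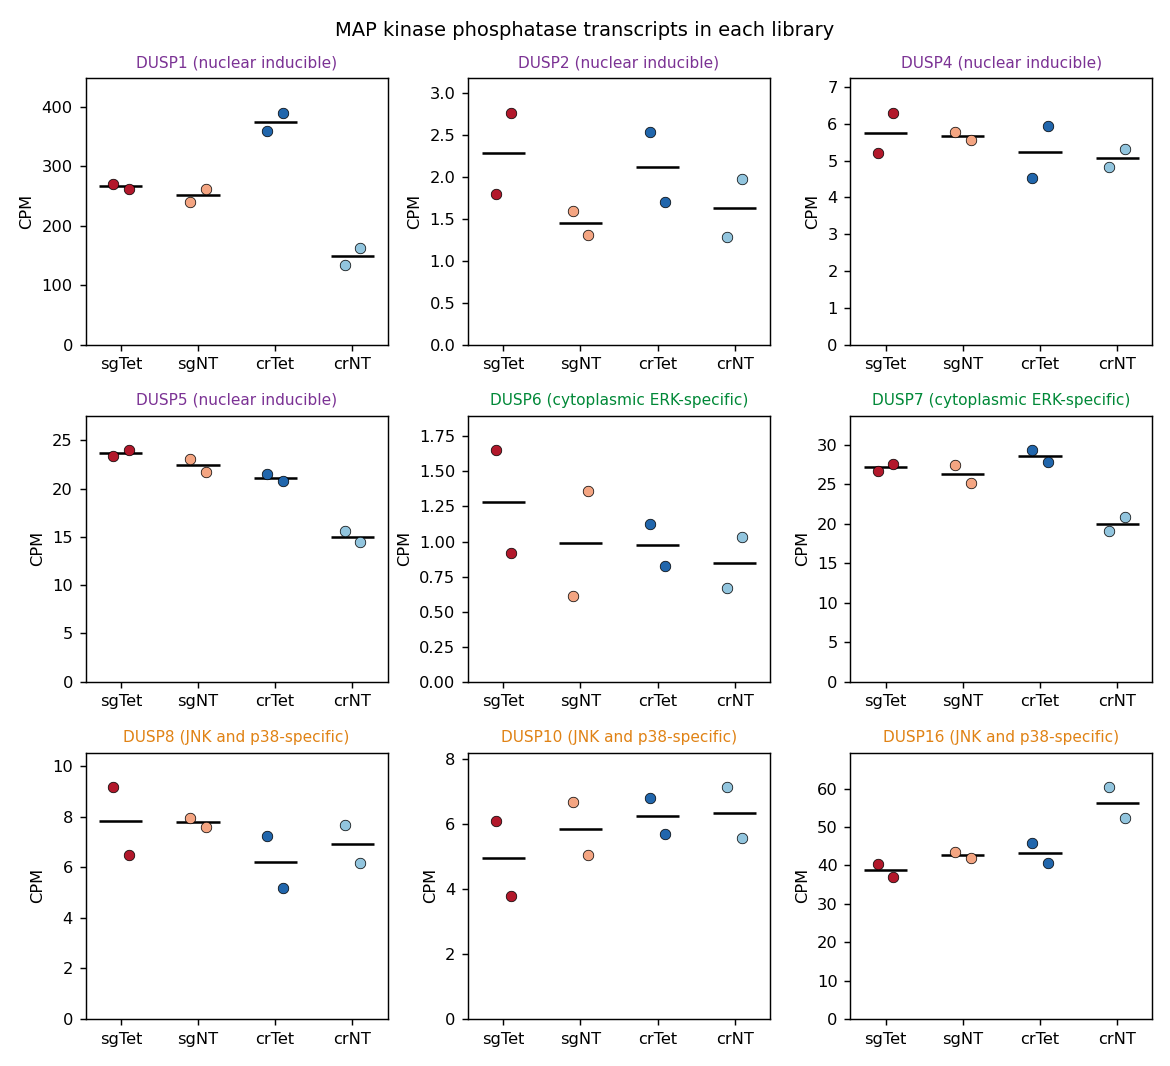
CPM of each member in each library, 1 panel a member with an axis from 0, a point for each of the 2 libraries of a group and a bar at the group mean. In the panels of DUSP1, DUSP5 and DUSP7 both crNT libraries lie below the other 6, and in that of DUSP16 above them.

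Of the cytoplasmic ERK-specific members, DUSP7 rose with dCas12a-VPR and DUSP6 did not pass the test. DUSP7 had 29.3 and 27.9 CPM in crTet, against 19.1 and 20.9 CPM in crNT, and 26.7 and 27.6 CPM in sgTet, against 27.5 and 25.1 CPM in sgNT. Again the 2 crNT libraries lay below the other 6, and sgTet and sgNT overlapped. DUSP7 rose 1.43-fold with dCas12a-VPR (0.52 ± 0.12, adjusted p = 0.0091), and the value with dCasMINI-VPR was 0.05 ± 0.12 (interval -0.20 to 0.29, adjusted p = 0.918). Its call was lost without crNT replicate 1 or 2 (adjusted p = 0.242 and 0.0511) or crTet replicate 1 (0.0768), with log2 fold changes of 0.45 to 0.59 over the libraries left out.

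DUSP6, the ERK phosphatase often used as a readout of ERK activity, was close to the limit of what this depth can measure. It had 1.12 and 0.826 CPM in crTet, against 0.666 and 1.03 CPM in crNT, and 1.65 and 0.919 CPM in sgTet, against 0.615 and 1.36 CPM in sgNT. All groups overlapped. Its 95% intervals, -0.996 to 1.39 with dCas12a-VPR and -0.77 to 1.54 with dCasMINI-VPR, hold changes larger than that of DUSP7, so a difference of that size was not detectable at this depth.

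The JNK and p38-specific members showed the one fall of the family. DUSP16, which acts mainly on JNK, had 45.8 and 40.6 CPM in crTet, against 60.4 and 52.5 CPM in crNT, and 40.5 and 37.1 CPM in sgTet, against 43.4 and 42.04 CPM in sgNT. Both crNT libraries were above the other 6, and both sgTet libraries were below both sgNT libraries. DUSP16 fell by 0.38 on the log2 scale with dCas12a-VPR (SE 0.11, adjusted p = 0.0236), and with dCasMINI-VPR the value was -0.14 ± 0.11 (interval -0.36 to 0.08, adjusted p = 0.628). The call was lost without crNT replicate 1 (adjusted p = 0.463) or crTet replicate 2 (0.247), with log2 fold changes of -0.28 and -0.30.

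DUSP8 and DUSP10, both phosphatases of JNK and p38, passed no test. DUSP8 had 7.22 and 5.16 CPM in crTet, against 7.69 and 6.16 CPM in crNT, and 9.15 and 6.48 CPM in sgTet, against 7.94 and 7.60 CPM in sgNT. DUSP10 had 6.78 and 5.68 CPM in crTet, against 7.12 and 5.56 CPM in crNT, and 6.10 and 3.77 CPM in sgTet, against 6.66 and 5.05 CPM in sgNT. The crTet and crNT libraries overlapped for both genes, as did the sgTet and sgNT libraries. With dCas12a-VPR the intervals were -0.61 to 0.30 for DUSP8 and -0.52 to 0.47 for DUSP10, and with dCasMINI-VPR -0.44 to 0.45 and -0.76 to 0.26. Reads of DUSP8 are also uncertain because of its pseudogene DUSP8P5, which had 238 reads over the 8 libraries against 1129 for DUSP8. For DUSP5 the pseudogene DUSP5P1 had 55 reads against 3237.

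The classes are set side by side for the guide effect with dCas12a-VPR. Of the 4 nuclear inducible members 2 rose and 0 fell, with a median log2 fold change of 0.44 and all 4 values above 0. Of the 2 cytoplasmic members 1 rose, with a median of 0.36 and both values above 0. Of the 3 JNK and p38-specific members 1 fell, with a median of -0.16 and no value above 0. The last median is the value of DUSP8, which passed no test, and it turned to 0.06 without crTet replicate 2 and to 0.01 without crNT replicate 1, while that of the cytoplasmic members turned to -0.02 with reverse-strand counts. The nuclear inducible median lies midway between DUSP5 and DUSP2, and the cytoplasmic one between DUSP7 and DUSP6. Of these, DUSP2 and DUSP6 passed no test. The median over all genes tested was 0.01, and with so few members a class is described here, not tested. With dCasMINI-VPR the medians were 0.08, 0.22 and -0.14, none resting on a gene that passed.

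The summed level moved with DUSP1. The 4 nuclear inducible members summed to 403 ± 21.1 CPM in crTet and 170.1 ± 20.2 CPM in crNT, and to 297 ± 5.05 CPM in sgTet and 280.2 ± 13.9 CPM in sgNT (SD, n = 2 each). The 2 cytoplasmic members summed to 29.6 ± 1.23 CPM in crTet and 20.8 ± 1.58 CPM in crNT, and the 3 JNK and p38-specific members to 55.6 ± 5.86 CPM in crTet and 69.7 ± 7.74 CPM in crNT. Without DUSP1 the other 8 genes summed to 114 ± 7.16 CPM in crTet and 112 ± 6.17 CPM in crNT, and to 112 ± 3.98 CPM in sgTet and 113 ± 4.76 CPM in sgNT. The sum of the other 8 members lay between 108 and 119 CPM in every library, while DUSP5 and DUSP7 were higher and DUSP16 lower in crTet than in crNT. Whether these changes are linked was not tested.

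**Figure D3:**
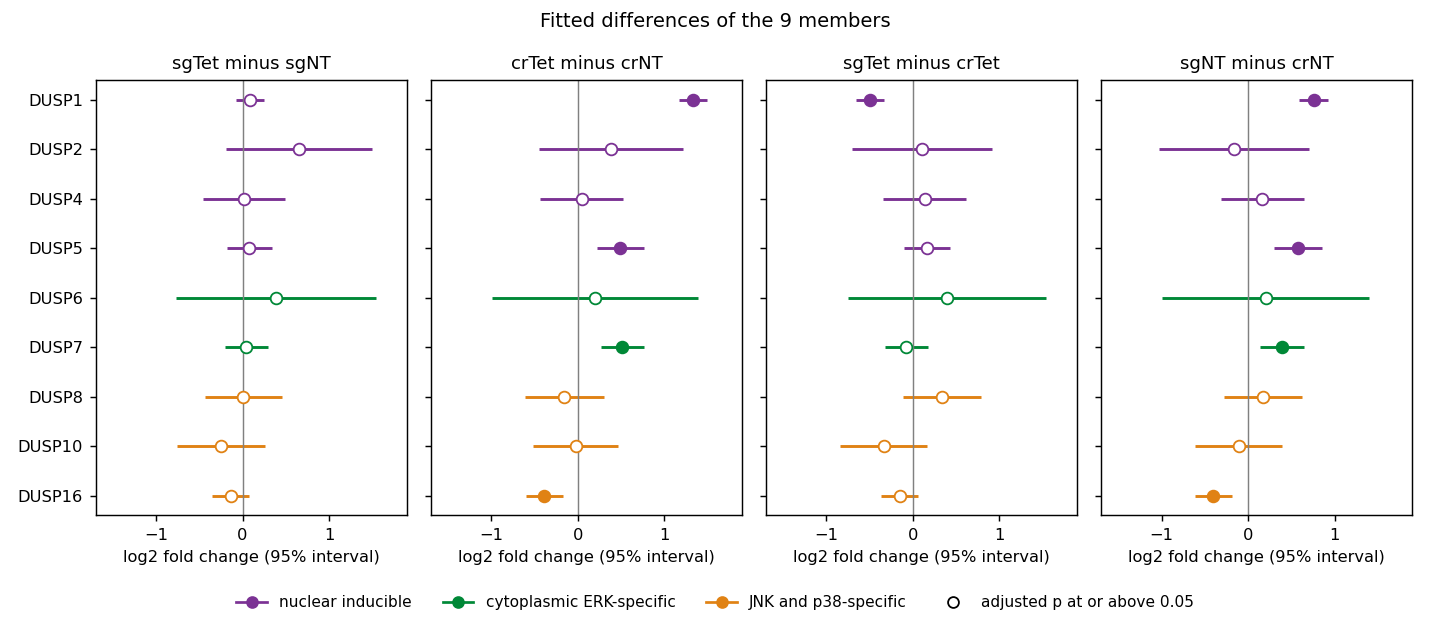
Fitted log2 fold change of each member with its 95% interval in 4 comparisons, 1 panel each, coloured by class, with filled points for an adjusted p below 0.05. In the panel of sgTet minus sgNT all 9 intervals include 0, and in that of sgTet minus crTet DUSP1 alone has a filled point.

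Whether the guide effects differed between the activators was tested in the same model. DUSP1 was the only member to pass: its guide effect with dCasMINI-VPR was lower than that with dCas12a-VPR by 1.25 on the log2 scale (-1.25 ± 0.11, adjusted p = 1.24e-08), where 1.35% of all genes were called. For DUSP7 the difference was -0.47 ± 0.17 (interval -0.83 to -0.12, adjusted p = 0.170) and for DUSP5 -0.41 ± 0.19 (interval -0.79 to -0.03, adjusted p = 0.271). For DUSP16 it was 0.25 ± 0.15 (interval -0.06 to 0.55, adjusted p = 0.441). The calls of DUSP5, DUSP7 and DUSP16 with dCas12a-VPR are therefore not shown to be particular to that activator.

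The activators were also compared with each other under the same kind of guide. With non-targeting guides, DUSP1, DUSP5 and DUSP7 were higher and DUSP16 lower in sgNT than in crNT, so that 4 of 9 members were called, against 7.68% of all genes (4.09% higher and 3.6% lower). DUSP1 averaged 251 ± 15.2 CPM in sgNT and 148 ± 20.2 CPM in crNT (SD, n = 2 each), a 1.69-fold difference (0.76 ± 0.08, adjusted p = 6.18e-08). DUSP5 averaged 22.4 ± 0.939 CPM in sgNT and 15.0 ± 0.848 CPM in crNT (0.58 ± 0.13, adjusted p = 0.00511). DUSP7 averaged 26.3 ± 1.65 CPM in sgNT and 20.0 ± 1.32 CPM in crNT (0.40 ± 0.13, adjusted p = 0.046), and DUSP16 averaged 42.7 ± 0.961 CPM in sgNT and 56.4 ± 5.56 CPM in crNT (-0.40 ± 0.11, adjusted p = 0.0144). The libraries of 5 members did not overlap between sgNT and crNT, DUSP4 being the fifth, against 55.2% of all genes. This comparison shares the crNT libraries with the guide effect of dCas12a-VPR and the sgNT libraries with that of dCasMINI-VPR, so its values are not independent of either.

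Of these 4 members only DUSP1 kept its call whichever library was left out. DUSP5 was no longer called when sgNT replicate 1 or crNT replicate 2 was absent (adjusted p = 0.0654 and 0.115). DUSP7 lost it without sgNT replicate 1 or 2 (0.282 and 0.155) or crNT replicate 1 or 2 (0.406 and 0.139). DUSP16 lost it without sgNT replicate 1 or 2 (0.0691 and 0.196) or crNT replicate 1 (0.348). For DUSP1 the adjusted p stayed between 1.42e-09 and 8.00e-05 whichever of the 8 libraries was left out.

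With Tet guides, DUSP1 was the only member called between the activators, and it was lower with dCasMINI-VPR. It averaged 266 ± 6.89 CPM in sgTet and 374 ± 21.2 CPM in crTet (SD, n = 2 each), a log2 difference of -0.49 ± 0.08 (adjusted p = 1.29e-04), where 4.28% of all genes were called. The libraries of 4 members did not overlap between sgTet and crTet, against 44.5% of all genes. DUSP5, DUSP7 and DUSP16, which differed between sgNT and crNT, had values of 0.16 ± 0.13, -0.08 ± 0.12 and -0.16 ± 0.11 between sgTet and crTet, with adjusted p of 0.548, 0.803 and 0.471. The call of DUSP1 held whichever library was left out, with adjusted p between 4.26e-05 and 0.0062.

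The crNT group had the highest or lowest of the 4 group means for 7 of the 9 members, and also for 60.6% of all genes tested, so nothing is read from this count. It had the lowest mean for DUSP1, DUSP4, DUSP5, DUSP6 and DUSP7 and the highest for DUSP10 and DUSP16, although DUSP4, DUSP6 and DUSP10 passed no test. For DUSP5, DUSP7 and DUSP16 the other 3 groups lay close together, with means of 21.1 to 23.7 CPM for DUSP5, 26.3 to 28.6 CPM for DUSP7 and 38.8 to 43.2 CPM for DUSP16. DUSP1 alone was also called between sgTet and crTet. The crTet libraries lay above every dCasMINI-VPR library for DUSP7 and below every one for DUSP5, without a call. The share of unmapped reads set crNT apart, but not crTet. It was 9.55% and 9.37% in crTet, 14.4% and 12.7% in crNT, 9.17% and 8.32% in sgTet and 9.62% and 9.11% in sgNT. Its part in the values of DUSP1, DUSP5, DUSP7 and DUSP16 was not tested.

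**Figure D4:**
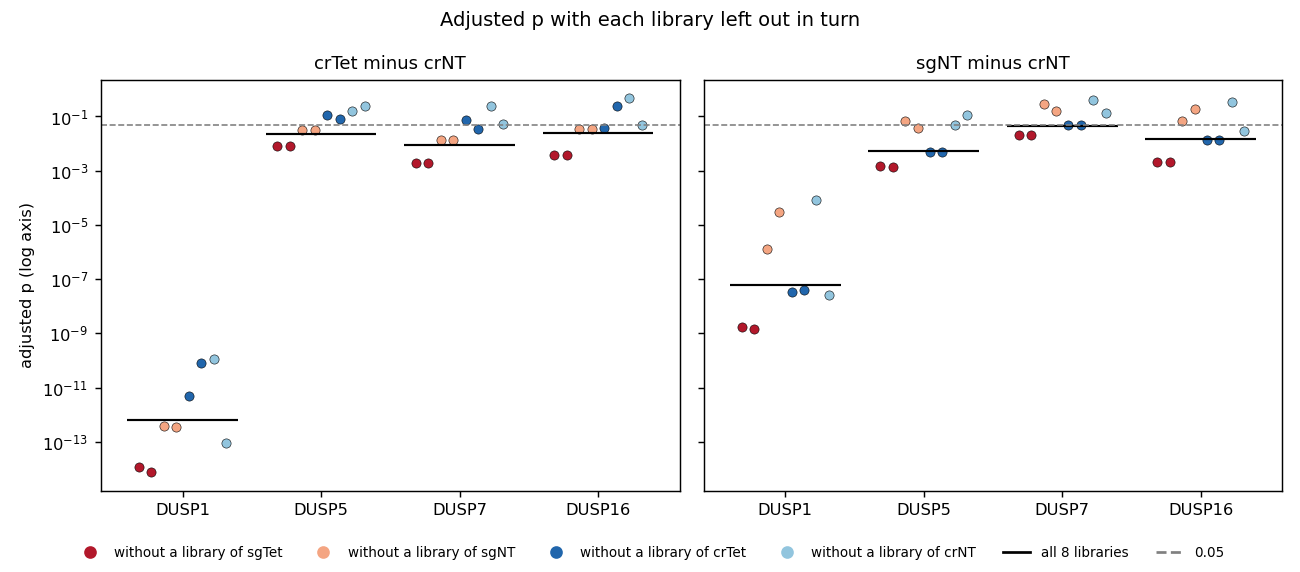
Adjusted p on a log axis for the 4 members called between crTet and crNT (left) and between sgNT and crNT (right), with a bar for the fit of all 8 libraries, a point for each library left out and a dashed line at 0.05. All points of DUSP1 lie below the line in both panels, while DUSP5, DUSP7 and DUSP16 each have points above it.

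The kinases that these phosphatases act on did not pass the guide test with either activator. Of 10 MAP kinase genes, 0 were called with dCas12a-VPR and 0 with dCasMINI-VPR, with 2 and 0 at an unadjusted p below 0.05 (19.8% and 12.3% of all genes), and DESeq2 called 0 in both. Their median log2 fold changes were -0.12 and 0.00. Of 11 genes for kinases upstream, 2 rose with dCas12a-VPR, against 3.56% of all genes, and 0 were called with dCasMINI-VPR. MAP2K2, which phosphorylates ERK, averaged 241 ± 6.99 CPM in crTet and 196 ± 14.5 CPM in crNT (0.30 ± 0.08, adjusted p = 0.0189). MAP2K3, which phosphorylates p38, averaged 63.0 ± 2.62 CPM in crTet and 49.6 ± 4.04 CPM in crNT (0.34 ± 0.10, adjusted p = 0.0258). Each lost its call without any 1 of the 4 crTet and crNT libraries, with adjusted p from 0.0562 to 0.31 for MAP2K2 and from 0.066 to 0.457 for MAP2K3.

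Among 19 other dual-specificity and MAP kinase phosphatase genes, 17 were tested, and 1 fell with dCas12a-VPR and 0 were called with dCasMINI-VPR. With dCas12a-VPR 2.75% of all genes were called lower and 3.56% higher, so nothing is read from a count of 1 in a list. With dCasMINI-VPR 0.795% of all genes were called. DUSP3, a small phosphatase of ERK and JNK, averaged 161 ± 0.99 CPM in crTet and 202 ± 1.18 CPM in crNT (-0.33 ± 0.07, adjusted p = 0.00523), a call lost without crNT replicate 1 (0.11) or 2 (0.0942). DUSP9, a cytoplasmic phosphatase of the same family that is not among the 9, had means of 56.7 to 66.3 CPM over the 4 groups and was called in no comparison. Of 16 other feedback and output genes of the ERK pathway, 1 rose with dCas12a-VPR and 0 were called with dCasMINI-VPR (2 and 0 by DESeq2). The one that rose was MYC, a transcription factor gene that responds to growth factors, at 131 ± 2.75 CPM in crTet and 88.0 ± 10.6 CPM in crNT (0.57 ± 0.08, adjusted p = 6.82e-05), a call that held under all 17 alternatives. EGR1, an early response transcription factor gene, had 979 ± 159 CPM in crTet and 420.0 ± 80.01 CPM in crNT and did not pass the test (1.22, adjusted p = 0.0758). Of the 3 genes for AU-rich element decay factors, RNA-binding proteins that shorten the life of early response transcripts, 0 passed the guide test with either activator (1 and 0 at an unadjusted p below 0.05 with dCas12a-VPR and dCasMINI-VPR, and 0 and 0 by DESeq2).

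The AP-1 genes encode the subunits of a dimeric transcription factor on which JNK and ERK act. Of the 8 genes 5 rose and 2 fell with dCas12a-VPR, against 3.56% and 2.75% of all genes, with a median log2 fold change of 0.53. JUN averaged 1521 ± 95.1 CPM in crTet and 677 ± 84.6 CPM in crNT (1.17 ± 0.08, adjusted p = 3.32e-11). FOS averaged 886 ± 63.4 CPM in crTet and 242 ± 43.2 CPM in crNT (1.87 ± 0.16, adjusted p = 0.00106), and JUNB averaged 90.3 ± 0.36 CPM in crTet and 52.3 ± 1.62 CPM in crNT (0.79 ± 0.10, adjusted p = 1.23e-05). ATF3, a member induced by stress, went the other way, at 164 ± 14.9 CPM in crTet and 221 ± 6.51 CPM in crNT (-0.42 ± 0.08, adjusted p = 7.89e-04), a call lost without crNT replicate 1 (0.0535). JUN, FOS and JUNB were called under all 17 alternatives, while over the alternatives between 3 and 5 AP-1 genes were called higher and between 0 and 2 lower. With dCasMINI-VPR 1 of the 8 was called, against 0.795% of all genes, with 2 more lower under the replicate block or with no filter on low counts. This was ATF3, which rose to 317 ± 19.9 CPM in sgTet, against 175 ± 13.0 CPM in sgNT (0.86 ± 0.08, adjusted p = 5.37e-09).

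JUN had the profile over the 8 libraries nearest to that of DUSP1 among the genes compared, so its values beside those of DUSP1 are a description that this likeness fixes. In the difference between guide effects JUN had a value of -1.35 ± 0.11 (adjusted p = 4.12e-09), beside -1.25 for DUSP1. Between sgNT and crNT it had 0.70 ± 0.08 (adjusted p = 3.09e-07), beside 0.76 for DUSP1, and between sgTet and crTet -0.65 ± 0.08 (adjusted p = 1.29e-06), beside -0.49 for DUSP1. In the difference between guide effects 1 AP-1 gene was higher and 5 were lower, where 1.35% of all genes were called (84 higher and 140 lower). The AP-1 genes called lower were 2 after removal of the length and GC trend, 4 with the replicate block and between 3 and 5 with 1 library left out. JUN, JUNB and ATF3 were called there under all 16 alternatives. In the other lists DUSP3 alone was called (0.46 ± 0.10, adjusted p = 0.0177), but not without sgNT replicate 1 or 2, crNT replicate 1 or 2 or crTet replicate 1 (adjusted p from 0.0655 to 0.156). Between sgNT and crNT the genes called higher and lower were 1 and 2 of the AP-1 genes, 0 and 1 of the MAP kinases, 2 and 0 of the upstream kinases, 0 and 1 of the other phosphatases, 1 and 2 of the feedback genes and 1 and 0 of the decay factors. Between sgTet and crTet they were 1 and 5 of the AP-1 genes, 0 and 2 of the other phosphatases, 0 and 2 of the feedback genes and 0 and 1 of the decay factors, with 0 of either kinase list. Of all genes tested, 4.09% were higher and 3.6% lower between sgNT and crNT. Between sgTet and crTet 4.28% of all genes were called, 279 higher and 432 lower. Counts of 1 or 2 genes in a list were not tested against these shares. Of the list genes called between sgNT and crNT, JUN and DUSP3 alone held under all 17 alternatives. Between sgTet and crTet JUN, JUNB, FOSB and ATF3 did, while without sgTet replicate 1 the other phosphatases and the feedback genes had 0 calls each, and after removal of the length and GC trend the AP-1 genes had 3 lower.

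The genes with the most similar profile were sought for the most abundant member of each class, by the root mean square difference of centred log2 CPM over the 8 libraries among 10141 genes. For DUSP1, whose own root mean square deviation from its mean was 0.486, the nearest was JUN at 0.141, followed by FOXB1 (0.198), SHB (0.200), GLI2 (0.217) and ID1 (0.221). For all 5, as for DUSP1, crTet had the highest and crNT the lowest group mean. For DUSP7, with a deviation of 0.206, the nearest were PPARGC1B (0.0641), CKMT1B, ANKRD13B, MMACHC and UQCRB (0.0758). For DUSP16, with a deviation of 0.213, the nearest were SNX29 (0.0423), PI4K2B, TMEM245, TBC1D8B and RNF19B (0.0635), all of which had their highest group mean in crNT. The libraries are shared by all genes compared, so the likeness describes these 8 libraries.

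**Figure D5:**
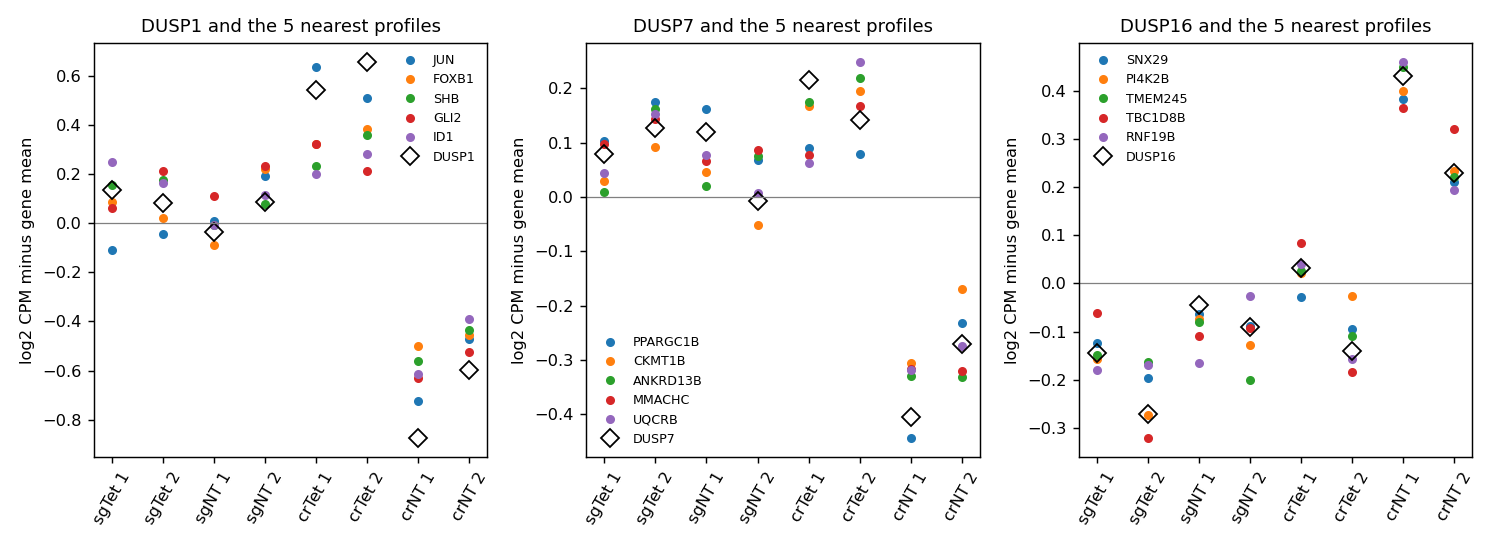
Log2 CPM minus the gene's mean over 8 libraries for DUSP1, DUSP7 and DUSP16 (open diamonds) and the 5 genes nearest to each (filled points), by library. In all 3 panels the crNT libraries stand apart from the rest, below 0 for DUSP1 and DUSP7 and above 0 for DUSP16. The crTet libraries are highest for DUSP1, JUN, FOXB1 and SHB, and for DUSP7, CKMT1B and ANKRD13B.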

How the data were processed

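Poly(A) RNA-seq gene tables of 8 libraries were used. Reads had been aligned to hg38 with STAR, per the submitters' processing notes, and the authors deposited raw read counts per gene, 1 table a library, without normalization. Of the 3 count columns the unstranded one was used. The 4 totals that name no gene (25.3% to 29.9% of reads) were left out. Symbols were found for 42024 of 60652 rows.

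Counts of all 8 libraries were fitted in 1 model with a mean per group, with TMM scaling and edgeR's group-wise low-count filter, by edgeR 4.0.16 (quasi-likelihood, robust, two-sided) in R 4.3.3. The 16606 genes tested had a common biological coefficient of variation of 8.04%, 4 residual and 28.9 prior degrees of freedom. A gene was called at a Benjamini-Hochberg adjusted p below 0.05 over all genes tested. Standard errors were computed as the size of the log2 fold change over root F. CPM use the TMM-scaled library size; whether libraries overlap was read from log2 CPM with a prior count of 2. With 1 library of a group left out, the remaining one takes its spread from the other groups. The scripts were tested on simulated data.

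Replicates of a group differed by more than counting noise, with a chi-square per degree of freedom of 12.5 in sgTet, 6.47 in crTet, 3.80 in sgNT and 3.12 in crNT. The largest value was in sgTet, a group of the guide comparison in which no member was called. Alternatives were library size alone, DESeq2 1.42.0, no filter, each strand column, only the groups compared, a replicate block and each library left out, and, chosen after seeing the data, the summed strand columns and a removed length and GC trend (99.2% of tested genes had both values). All 9 members were reported. From the other lists up to 4 called genes per guide comparison were named, by smallest adjusted p; between the activators the lists were counted and JUN named as the gene nearest to DUSP1. EGR1, the genes named for lost calls and DUSP9 were named after their values were seen. For the most abundant member of each class the 5 nearest genes with a mean log2 CPM of at least 3 were named. The members and lists were chosen with earlier results of these data known.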

Additional observations from a re-analysis of the deposited data

Results flagged for a closer look

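DUSP1 was flagged because its guide effects differed between the activators by a test of the difference itself. With dCas12a-VPR it stood at 374 ± 21.2 CPM in crTet and 148 ± 20.2 CPM in crNT, and with dCasMINI-VPR at 266 ± 6.89 CPM in sgTet and 251 ± 15.2 CPM in sgNT (SD, n = 2 each). The effect with dCasMINI-VPR minus that with dCas12a-VPR was -1.25 on the log2 scale (SE 0.11, adjusted p = 1.24e-08, edgeR), between -1.40 and -1.12 over the 16 alternatives. Both dCas12a-VPR groups lay outside the range of the dCasMINI-VPR groups, crTet above and crNT below.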

How the results depend on the processing

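All calls of DUSP1 (in 4 comparisons) held under every alternative run, with adjusted p of at most 7.92e-10 for the guide effect with dCas12a-VPR, 1.72e-06 for the difference between guide effects, 8.00e-05 between sgNT and crNT and 0.0062 between sgTet and crTet. Among the 9 members no called value reversed and no uncalled one became a call; 62 of 587 uncalled values changed sign without a call. In the other lists uncalled genes did become calls: MAP kinases with 1 lower with dCas12a-VPR (only the groups compared), feedback genes with up to 2 lower with dCas12a-VPR and AP-1 genes with up to 2 lower with dCasMINI-VPR. With 1 library left out the count of members called was 0 to 0 with dCasMINI-VPR, 1 to 4 with dCas12a-VPR, 1 to 1 for the difference, 1 to 4 between sgNT and crNT and 1 to 1 between sgTet and crTet. Forward-strand counts, which hold the reads of 1 strand alone, left 1 member called with dCas12a-VPR (DUSP5 0.136, DUSP7 0.0593, DUSP16 0.16) and 2 between sgNT and crNT (DUSP7 0.368, DUSP16 0.1); reverse-strand counts ended the call of DUSP5 between sgNT and crNT (0.127), and library size alone (0.06), no filter (0.0597) or DESeq2 (0.0631) that of DUSP7. All 10 member calls held with the length and GC trend removed. DESeq2 gave no adjusted p for 12 member values. The labels do not say whether replicate numbers pair the libraries. Over all genes tested, deviations of same-numbered libraries had correlations of -0.016 to 0.049, which does not settle it. DUSP8, DUSP10 and DUSP16 were higher in replicate 1 than in replicate 2 in every group, and the other members had no such order. The replicate block left 0, 4, 1, 4 and 1 members called in the 5 comparisons, as without it. The number of all genes called ran from 50 to 1475 (132 with all 8 libraries) with dCasMINI-VPR, 135 to 1965 (1049) with dCas12a-VPR, 28 to 1835 (224) for the difference, 333 to 2968 (1276) between sgNT and crNT and 317 to 2150 (711) between sgTet and crTet. With a floor of 1 in place of 3 on mean log2 CPM, 3 of the 5 genes nearest to DUSP1 remained (JUN, FOXB1 and SHB) and all 5 for DUSP7 and DUSP16. The calls of MAP2K3 with dCas12a-VPR and of DUSP3 in the difference were also lost with reverse-strand counts (0.0745 and 0.0628). FOS lost its call in the difference and between sgTet and crTet without any 1 of the 4 sgTet and crTet libraries or after removal of the length and GC trend (0.119 and 0.0584), and in the difference also with the replicate block (0.103). Between sgNT and crNT the calls of MAPK14, MAP2K2, MAP2K3, ETV4, ETV5, MYC, FOSL2, ATF3 and ZFP36L1 were each lost without at least 1 library. Between sgTet and crTet DUSP15 was called under 8, PTPN5 under 12, SPRY1 under 9 and EGR1 under 6 of the 17 alternatives. Depth limits DUSP2 and DUSP6, at 12 to 57 reads per library.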

Other observations

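Within 500 kb of DUSP1 on chromosome 5, 11 other genes were tested, of which NKX2-5 and CREBRF are named after their values were seen. NKX2-5, a homeobox gene of heart development whose nearest end lies 461 kb away, rose with dCasMINI-VPR, at 343 CPM in sgTet and 88.2 CPM in sgNT (1.96, adjusted p = 1.12e-18, edgeR), where DUSP1 had a log2 fold change of 0.08. With dCas12a-VPR NKX2-5 stood at 83.0 CPM in crTet and 74.5 CPM in crNT (0.16, adjusted p = 0.288), where DUSP1 rose. CREBRF, a regulator of a stress transcription factor 285 kb away, fell with dCas12a-VPR, at 15.1 CPM in crTet and 24.5 CPM in crNT (-0.69, adjusted p = 0.00412), a call lost without crNT replicate 1 (0.101) or crTet replicate 2 (0.117) or with forward-strand counts (0.121). The nearest tested gene, ERGIC1 at 63.1 kb, passed no test, with 148 CPM in crTet and 142 CPM in crNT and 139 CPM in both sgTet and sgNT. The other 8 passed neither guide test.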
